A study of Homo sapiens with 2 samples.

Results

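The open regions described here lie between genes but not far from them. They are the regions whose summit was outside every protein-coding gene and more than 1 kb but at most 100 kb from the nearest transcription start site (TSS) of a protein-coding gene. In B2B cells 4594 of 25326 open regions were of this kind, or 18.1% (95% Wilson interval 17.7 to 18.6). The number rests on requiring a peak in both replicates, since replicate 1 alone gave 5169 such regions and replicate 2 alone 7027. The others were 10293 regions within 1 kb of a protein-coding TSS and 6418 intronic and 1021 exonic regions. A further 3000 lay in gene deserts, more than 100 kb from any protein-coding TSS. B2B is BEAS-2B, an immortalized and non-cancerous line of human bronchial epithelial cells with a wild-type genotype. It was profiled untreated in 2 biological replicates of this 1 line by ATAC-seq, a method that cuts and tags accessible DNA with the transposase Tn5. The question behind the study is how transcription factors connect distal elements to the promoters of oncogenes in lung cancer. There was 1 condition, so no groups were compared, and intervals are for counting error only because regions of 1 cell line are not replicates of it.

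Open chromatin between genes marks DNA from which nucleosomes have been moved, as a rule by bound transcription factors. Many such sites act as enhancers, which raise transcription from promoters some distance away, and others are insulators bound by CTCF, which with cohesin anchors chromatin loops. AP-1 is a dimer of JUN and FOS family proteins that responds to growth factors and stress, and it binds a short palindrome in the enhancers of many cell types. TEAD factors, which carry the output of the Hippo pathway, and RUNX factors bind many of the same elements in adherent cells. The nearest gene of an open region is a label of position and need not be the gene it acts on.

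A region was an overlap of at least 1 bp between a peak of each replicate on chromosomes 1 to 22 and X. The peak lists held 28685 and 36109 such peaks, which merged to 37599 regions. Their strength is given as fold enrichment, the fragments over the summit divided by the local background, with 1 added to each. The fragments at a summit were 35 and 30 in the median peak, and the weakest peaks had 16 and 13. Sites with fewer fragments could not be detected at this depth, which does not make them closed. As a check on the labelled cell type, 1 of 12 promoters of epithelial marker genes held a peak of both replicates (KRT18), while those of the adhesion and keratin genes CDH1, EPCAM, KRT5 and KRT14 did not. Of 12 promoters of mesenchymal markers 9 did (CDH2, COL1A1, FN1, LOX, SPARC, TAGLN, TWIST1, VIM and ZEB1), against 52.4% of all 19970 protein-coding genes.

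The sequences of 5 of these regions are shown, because each is the strongest of its kind by mean fold enrichment. They cover 100 bases to either side of the summit and are taken from the hg38 genome, with the motif in capitals. The first holds no other listed motif than AP-1 (TGACTCA), and the second is the strongest with that motif. The third holds the CTCF motif, the fourth the TEAD motif (AGGAATG or GGGAATG) and the fifth the RUNX motif (TGTGGTT or TGTGGTC and the same words as TGCGGTT or TGCGGTC).
Region nearest to NID1, chr1:236097103-236097303, hg38, plus strand: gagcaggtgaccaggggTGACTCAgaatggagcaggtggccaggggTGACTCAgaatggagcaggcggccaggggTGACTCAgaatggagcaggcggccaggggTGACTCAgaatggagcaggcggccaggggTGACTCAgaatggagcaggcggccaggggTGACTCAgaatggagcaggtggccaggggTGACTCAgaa
Region nearest to PJA2, chr5:109455842-109456042, hg38, plus strand: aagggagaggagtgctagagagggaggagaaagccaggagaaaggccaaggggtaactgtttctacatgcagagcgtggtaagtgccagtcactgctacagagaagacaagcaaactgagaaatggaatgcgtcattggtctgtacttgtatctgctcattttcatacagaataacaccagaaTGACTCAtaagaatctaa
Region nearest to ANKRD9, chr14:102524612-102524812, hg38, plus strand: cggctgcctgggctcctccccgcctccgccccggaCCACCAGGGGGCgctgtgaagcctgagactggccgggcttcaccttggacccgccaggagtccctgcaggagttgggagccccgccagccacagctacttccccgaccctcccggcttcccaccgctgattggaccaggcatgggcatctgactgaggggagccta
Region nearest to CCDC112, chr5:115366341-115366541, hg38, plus strand: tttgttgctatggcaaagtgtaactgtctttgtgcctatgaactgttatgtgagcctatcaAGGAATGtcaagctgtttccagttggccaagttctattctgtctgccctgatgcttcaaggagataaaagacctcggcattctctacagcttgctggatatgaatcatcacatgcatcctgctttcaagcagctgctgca
Region nearest to RAP2B, chr3:153221845-153222045, hg38, plus strand: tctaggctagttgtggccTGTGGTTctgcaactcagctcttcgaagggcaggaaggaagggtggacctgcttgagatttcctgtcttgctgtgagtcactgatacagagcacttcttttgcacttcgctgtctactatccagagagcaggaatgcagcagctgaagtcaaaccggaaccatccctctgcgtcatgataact

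The region 32113 bp upstream of NID1, which encodes the basement membrane protein nidogen-1, held 7 copies of the AP-1 motif at a regular spacing of 29 bp, each within a repeated unit of the sequence. The replicates gave it fold enrichments of 22.5 and 25.6. No other region between genes held more than 4 copies within 100 bp of its summit. The region 45968 bp upstream of PJA2, a ubiquitin ligase gene, reached 24.3 and 24.1 with 1 copy, 86 bp from its summit. The region 14936 bp upstream of ANKRD9 was the strongest with a CTCF motif, at 16.6 and 15.9. The region 69787 bp upstream of CCDC112 held a TEAD motif at 23.7 and 21.0, and the region 59719 bp downstream of the TSS of RAP2B, a small GTPase gene, held RUNX, TEAD and AP-1 motifs at 21.8 and 22.4. In all 5 regions the replicates differed by far less than the gap to the median region.

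The median fold enrichment over all 4594 regions was 6.06 in replicate 1 and 7.70 in replicate 2 (mean 6.88 ± 1.16, SD, n = 2). Intronic regions had medians of 5.89 and 7.48 and gene deserts of 6.24 and 7.70, so these 3 kinds of distal region differed by less than the replicates did. In a bulk sample, accessibility in fewer cells and weaker accessibility in each cell cannot be told apart. Promoters were stronger in both replicates, at 7.45 and 8.92. The middle 50% of the regions between genes spanned 4.85 to 8.14 in replicate 1 and 5.89 to 10.2 in replicate 2. A median of 35 fragments lay over the summit in either replicate. The regions had a median width of 342 bp, and 1.92% were wider than 1 kb, against 12.01% of promoter regions. Fold enrichment was higher in replicate 2 in 3605 of the regions (78.5%), was within 1.5 times between the replicates in 79.1%, and was over 2 times apart in 107. Across regions the Spearman correlation between the replicates was 0.752, as a description, since neighbouring regions share library and depth.

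**Figure D1:**
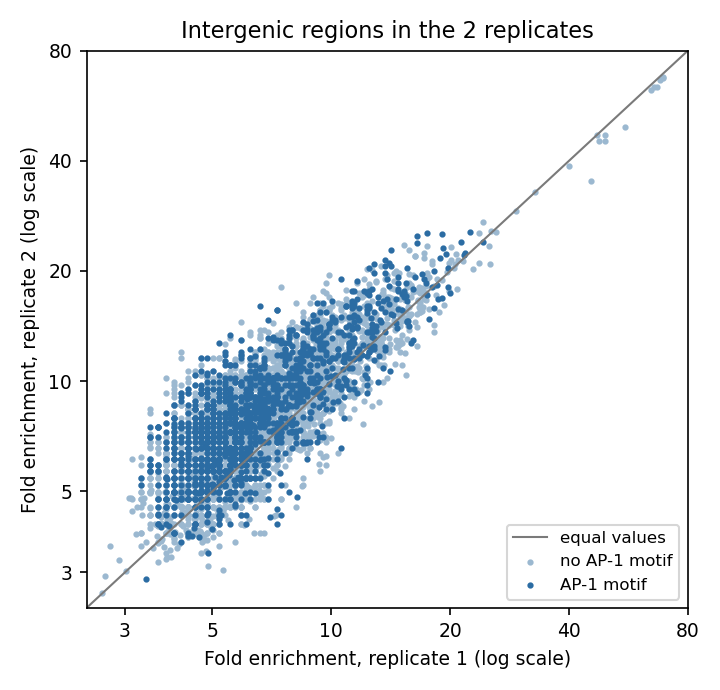
Fold enrichment of each of the 4594 regions in replicate 1 (x axis) and replicate 2 (y axis), both on log scales, with regions that hold an AP-1 motif in dark blue. Most points lie above the line of equal values (78.5% were higher in replicate 2), and the lattice at low values comes from whole numbers of fragments over a shared background. The points with fold enrichments of about 30 and more all match mitochondrial DNA.

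The strongest values belonged to copies of mitochondrial sequence in the nuclear genome. In 29 of the regions the sequence matched mitochondrial DNA, and 15 of these were above every other region, with mean fold enrichments of 29.3 to 68.6 against at most 25.9 for the rest. The highest was 4697 bp upstream of EMILIN2, at 69.4 and 67.8. Whether reads of mitochondrial DNA contribute to these peaks was not tested, and the regions named for their strength leave them out.

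Among the remaining regions the strongest lay 30643 bp upstream of LTBP1, which encodes a protein that tethers latent TGF-beta to the matrix. It reached 26.1 in replicate 1 and 25.6 in replicate 2, lay within a lncRNA gene and held a GC box (GGGCGGG), the motif of SP and KLF factors. Within 100 bp of its summit the GC content was 94.5%, the highest of all the regions between genes, whose median was 54.2%. The same window held CG only 3 times, and low-complexity sequence was not filtered out. Whether this base composition affects its place as the strongest region was not tested. The next were 27068 bp downstream of the TSS of SLC28A2, a nucleoside transporter gene, at 24.3 and 27.2 and 51 bp from the TSS of the lncRNA SLC28A2-AS1, and 88893 bp downstream of the TSS of HNRNPD, which encodes an RNA-binding protein, at 25.5 and 25.8. The region 39087 bp downstream of the TSS of ERVMER34-1, a gene from an endogenous retrovirus, reached 25.2 and 23.4 and lay 56 bp from the TSS of LINC01618. The region 22915 bp upstream of ECHDC1 reached 21.3 and 24.0 and held 1 AP-1 motif. A further region of the top 10, nearest to the unnamed gene ENSG00000283809, reached 23.7 and 25.4. Of these 10 regions, 4 held an AP-1 motif (nearest to PJA2, NID1, ECHDC1 and RAP2B).

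Between genes, open regions were denser near TSSs than far from them. Sequence outside protein-coding genes at 1 to 100 kb from a TSS makes up 632 Mb, or 21.7% of the genome. It held 7.27 open regions per Mb, against 3.10 per Mb in gene deserts, a ratio of 2.34. Within the 100 kb the fall was small. The density was 8.997 per Mb at 1 to 5 kb (exact Poisson interval 8.18 to 9.87), 7.09 at 5 to 10 kb, 7.32 at 10 to 20 kb, 7.46 at 20 to 50 kb and 6.70 at 50 to 100 kb (6.35 to 7.06). The ratio of the nearest to the farthest of these bins was 1.34. The median distance was 31335 bp. Most regions lay upstream of their nearest TSS (3143, or 68.4%), as did 71.1% of the sequence, so the density was 6.995 per Mb upstream and 7.95 per Mb downstream.

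**Figure D2:**
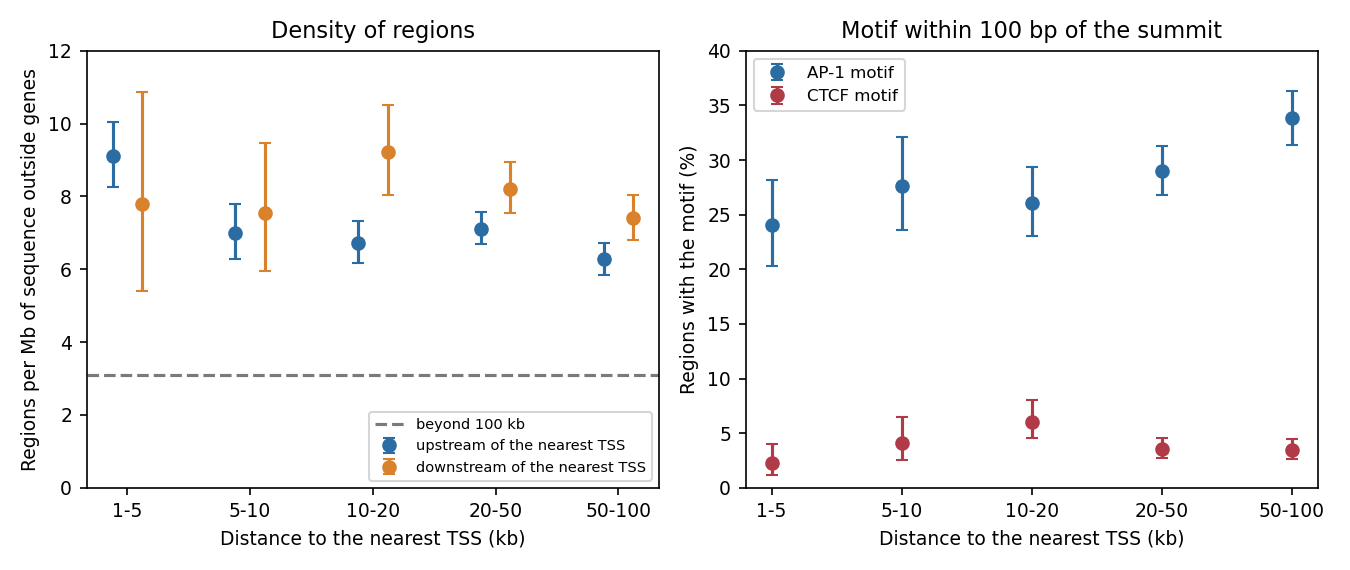
Left, open regions per Mb of sequence outside protein-coding genes (y axis) by distance to the nearest TSS in kb (x axis), upstream in blue and downstream in orange, with exact Poisson 95% intervals and the density in gene deserts of 3.10 per Mb as a dashed line. Right, percent of regions with an AP-1 or a CTCF motif within 100 bp of the summit, with Wilson 95% intervals, where AP-1 goes from 24.1% at 1 to 5 kb to 33.8% at 50 to 100 kb and CTCF is highest, at 6.06%, at 10 to 20 kb.

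The limits of 1 kb and 100 kb cut through a continuum. Just inside the near limit were regions 1002 bp from the TSS of SRCAP, at 6.76 and 9.06, and 1009 bp from that of SH3RF3, at 4.85 and 6.12. Just outside it were regions 992 bp from the TSS of UGP2, at 11.8 and 11.7, and 994 bp from that of TMTC2, at 9.11 and 7.53. At the far limit, regions 99836 bp from RYBP (5.20 and 6.57) and 99916 bp from DIP2C (4.33 and 4.30) were inside, and a region 100150 bp from IGF1R (6.93 and 10.2) was outside.

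Of the annotations not used in choosing the regions, long non-coding RNA genes covered 1328 of them, or 28.9% (27.6 to 30.2), against 23.8% of the same sequence. A lncRNA TSS lay within 1 kb of 690 summits (15.02%). The share was 21.5% in promoter, 9.21% in exonic, 4.21% in intronic and 7.83% in desert regions. These 690 regions differed from the other regions between genes in sequence and strength. Their fold enrichment had medians of 6.52 and 8.16 against 5.89 and 7.48, their GC content was 64.7% against 52.7% within 100 bp of the summit, and 12.9% held an AP-1 motif against 32.3% of the others (difference −19.4 percentage points, 95% Newcombe interval −22.2 to −16.4). For CTCF the difference was −0.76 points, with an interval of −2.02 to 0.93 that spans 0. Protein-coding promoters had a GC content of 69.2% and intronic regions of 50.7%.

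AP-1 was the most frequent of the listed motifs in these regions. The palindrome TGACTCA was found in 1351 of them, or 29.4% (28.1 to 30.7), at most 100 bp from the summit. In equally long windows centred 1000 bp away the share was 3.35%, lower by a factor of 8.77, and over all 25326 open regions it was 20.5%. Of the listed motifs, CTCF had a higher ratio to these windows (39.1, from only 9 windows with the motif). So did TGACTCAGC (11.3), which contains TGACTCA. Among all 8192 words of 7 bases, counted on both strands, TGACTCA had the largest excess over the flanking windows, 26.1 percentage points, and the sixth largest ratio to them, behind 5 words that contain CG. The share was lower than in intronic regions, where it was 34.7% (difference −5.34 points, −7.09 to −3.57), and than in gene deserts, where it was 36.2% (−6.83 points, −8.99 to −4.66). It was far above the 2.81% of promoters. Most regions with the motif held it once (1155), 179 held it 2 times, 15 held it 3 times and 1 held it 4 times, besides the 7 copies near NID1.

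The CTCF motif, in contrast to AP-1, was more frequent in these regions than in introns and gene deserts. It was found in 176 regions, or 3.83% (3.31 to 4.43), against 0.098% of the flanking windows and 1.62% of all open regions. This was above the share in introns (1.496%, difference 2.34 points, 1.72 to 2.99), in gene deserts (1.47%, difference 2.36 points, 1.65 to 3.07) and in promoters (0.651%). The difference from exonic regions, which held it in 2.74%, had an interval that spans 0 (−0.21 to 2.12).

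**Figure D3:**
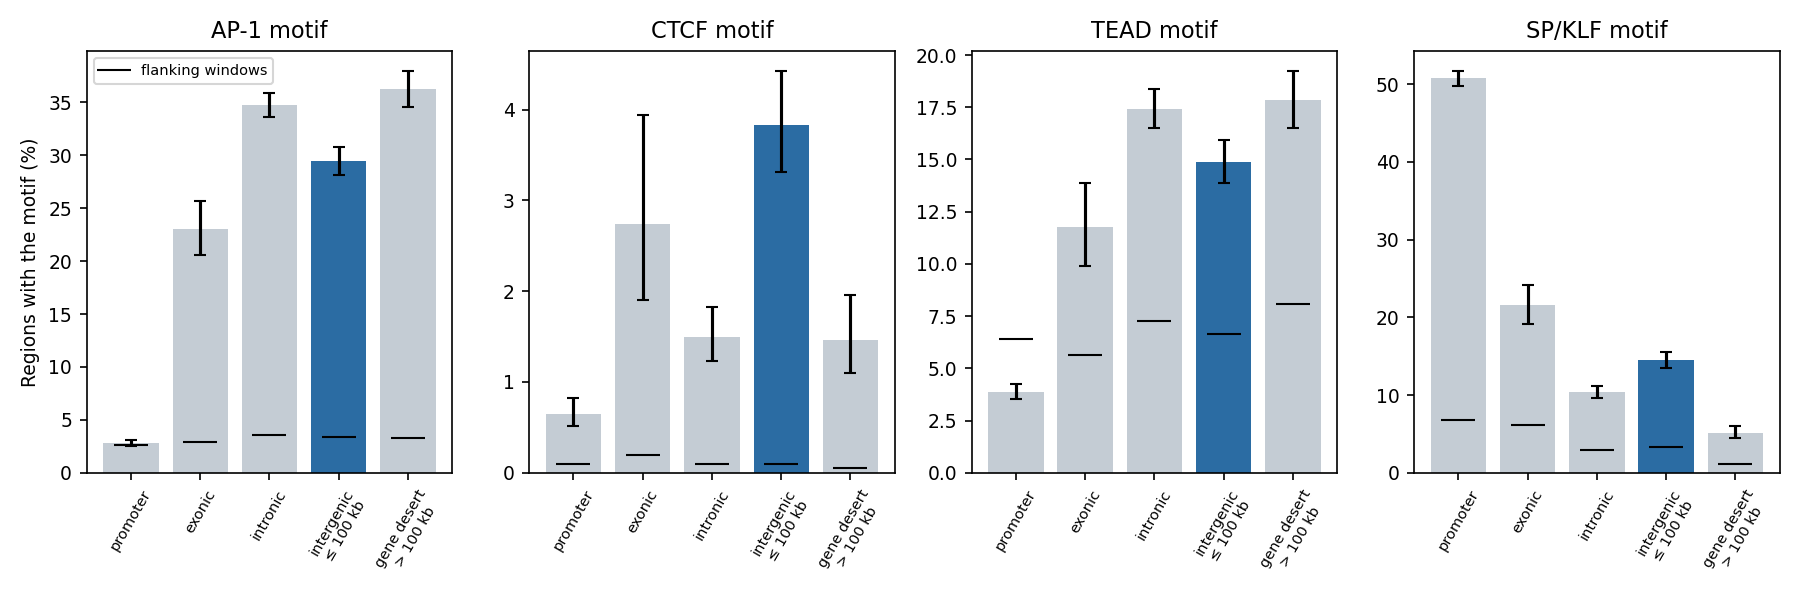
Percent of regions with the AP-1, CTCF, TEAD or SP/KLF motif within 100 bp of the summit (y axes, each from 0) in the 5 kinds of open region, with the regions between genes in blue, Wilson 95% intervals, and a black line for the share in windows 1000 bp to either side. Regions between genes hold AP-1 less often than intronic and desert regions (29.4% against 34.7% and 36.2%) and CTCF more often (3.83% against 1.496% and 1.47%).

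Base composition moved with both motifs. The regions between genes had a median GC content of 54.2%, above that of introns (50.7%) and deserts (46.8%). Where GC was under 45%, AP-1 was held by 39.1% of regions between genes and 39.1% of intronic regions (difference −0.060 points, −4.03 to 3.95), and at a GC of 45 to 55% by 40.6% and 39.9% (0.68 points, −2.42 to 3.79). At 55 to 65% the shares were 26.6% and 33.4% (−6.78 points, −10.3 to −3.26), and at 65% and more 6.97% and 10.8% (−3.78 points, −6.56 to −1.12). The lower share of AP-1 was thus measured in GC-rich regions, and at lower GC the intervals spanned 0. For CTCF the share between genes was higher at 45 to 55% GC (2.15% against 0.943%), at 55 to 65% (6.26% against 3.51%, difference 2.75 points, 1.10 to 4.48) and above (6.06% against 1.94%, difference 4.12 points, 2.31 to 5.95). Under 45% GC it was 0.92% against 0.418%, with an interval of the difference that spans 0.

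AP-1 and CTCF were seldom found in the same region. Of the regions with an AP-1 motif 0.666% also held CTCF, against 5.15% of those without (difference −4.48 points, −5.36 to −3.56). GC boxes were also rarer beside AP-1 (4.37% against 18.7%), whereas TEAD was held by 15.7% and 14.5% and RUNX by 14.7% and 13.0%, with intervals of the difference that span 0. The regions with each motif differed in other respects. Those with CTCF had a median width of 274 bp and a GC content of 62.2%, and 57.4% were upstream of their TSS. Those with AP-1 had a width of 330 bp and a GC content of 50.2%, and 71.4% were upstream. Their fold enrichments were 5.89 and 6.87 with CTCF, and 6.18 and 7.93 with AP-1.

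Around the summits both motifs formed a narrow peak with a dip at its centre. AP-1 had 2.62 copies per kb at 20 to 40 bp before the summit and 2.48 at 20 to 40 bp after it, against 2.11 and 2.09 in the 20 bp on either side of the summit and 0.163 at 480 to 500 bp before it. CTCF had 0.424 and 0.512 copies per kb at 20 to 40 bp, and 0.098 and 0.0762 next to the summit.

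**Figure D4:**
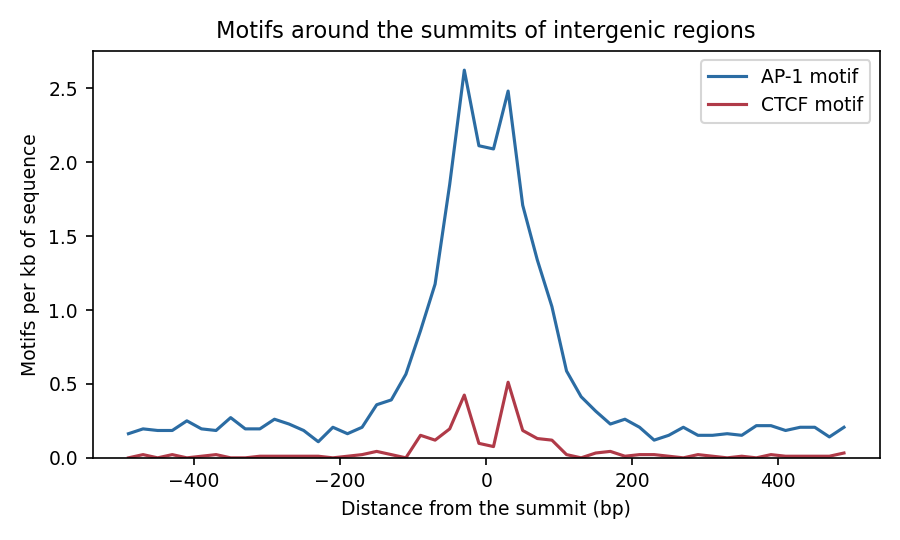
Copies of the AP-1 (blue) and CTCF (red) motifs per kb of sequence (y axis) in bins of 20 bp by distance from the summit in bp (x axis), over the 4594 regions. Both rise within about 100 bp of the summit, with 2.62 and 2.48 copies of AP-1 per kb at 20 to 40 bp to either side and fewer at the summit itself.

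With distance from the TSS the AP-1 share rose from 24.1% at 1 to 5 kb to 33.8% at 50 to 100 kb (difference 9.78 points, 4.96 to 14.3), while the GC content fell from 59.2% to 51.7%. CTCF was highest at 10 to 20 kb, in 45 of 743 regions (6.06%), and reached 9.42% (6.24 to 13.97) in the 223 of these that lay downstream. Over all distances CTCF was held by 5.17% of regions downstream and 3.21% upstream (difference 1.96 points, 0.73 to 3.34), and AP-1 by 26.6% and 30.7% (−4.10 points, −6.85 to −1.28). The weakest regions held AP-1 least often. In the 919 weakest and the 919 strongest regions by fold enrichment in replicate 1 the share was 25.5% and 30.8% (difference 5.33 points, 1.22 to 9.42), and in replicate 2 it was 24.0% and 33.6% (9.58 points, 5.44 to 13.7). The groups of equal size between these held it in 28.8%, 31.4% and 30.5% by replicate 1. By replicate 2 the shares were 26.4%, 32.0% and 30.9%, so the rise with strength was not steady.

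TEAD lay in 14.9% of the regions against 6.66% of the flanking windows and 11.3% of all open regions, and was less frequent than in introns (17.4%, difference −2.57 points, −3.95 to −1.17). RUNX lay in 13.5% against 7.04% of flanks and 11.1% of all open regions. The longer element TGACTCAGC, which BACH and NRF2 factors share and which contains the AP-1 motif, lay in 3.7005% against 0.327% of flanks and 2.42% of all. GC boxes lay in 14.5% (3.31% of flanks, 27.4% of all), ETS motifs (CCGGAAA or CCGGAAG) in 5.75% (1.69% of flanks, 9.93% of all), NFY motifs (CCAATC or CCAATG) in 16.2% (12.3% of flanks, 20.1% of all) and the NF-kB motif in 6.44% (4.28% of flanks, 7.08% of all). For FOX, GATA and SOX the shares were close to or under those of the flanks. FOX (TGTTTAC) lay in 2.63% (2.55% of flanks, 2.31% of all), the GATA-factor motif AGATAAG in 2.13% (2.43% of flanks, 1.55% of all) and SOX (ACAATGG) in 1.63% (2.21% of flanks, 1.46% of all). None of the 20 motifs was found in 1113 regions (24.2%). Such a match is a run of letters and not a measured binding site.

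Regions between genes lay more often near open promoters. The promoter of the nearest gene held a peak of both replicates for 2897 of them, or 63.1% (61.7 to 64.4), whereas 50.6% of the sequence was nearest to such a gene. The density was 9.06 per Mb (8.73 to 9.40) next to open promoters and 5.44 per Mb (5.18 to 5.70) next to the others. AP-1 was held by 30.7% and 27.3% of these regions (difference 3.37 points, 0.64 to 6.05). In all, 3013 of 19970 protein-coding genes (15.1%) were nearest to at least 1 of the regions. Of these 2038 had 1, 625 had 2, 212 had 3, 76 had 4 and 62 had 5 or more.

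The 10 genes with the most regions had 7 to 12 each. IER5, an immediate-early gene, had 12 regions, from 14796 bp upstream to 53919 bp downstream of its TSS. The strongest, 23956 bp downstream, had fold enrichments of 12.6 and 14.3 and an AP-1 motif, and 7 of the 12 lay within 23.1 kb (chromosome 1, 181094912 to 181117992). NR2F2, which encodes the nuclear receptor COUP-TFII, had 11 over both sides, the strongest 98185 bp downstream at 12.5 and 20.4 with an AP-1 motif. ANXA2R had 10, the strongest 89501 bp downstream at 10.05 and 11.6. DUSP1, a phosphatase that switches off MAP kinases, had 9, of which the strongest, 37420 bp downstream, was at 11.6 and 14.8. SOCS3, an inhibitor of cytokine signalling, had 8, all downstream, from 7045 to 45821 bp, with a strongest value of 9.03 and 10.1.

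The other 5 genes had 7 regions each. For JUN, the AP-1 subunit, the strongest lay 28405 bp downstream at 17.2 and 21.8, another lay 65005 bp upstream at 19.8 and 18.1 and held an AP-1 motif, and 4 lay between 30729 and 34193 bp upstream at 3.94 to 7.42 in replicate 1 and 4.51 to 7.82 in replicate 2. CCNL1, a cyclin of RNA processing, had one 78328 bp downstream at 14.7 and 17.7 that held both an AP-1 and a CTCF motif. THBS2, a matricellular thrombospondin, had 4 with AP-1, among them one 90677 bp downstream at 12.8 and 12.5 with 3 copies. ITGB6, the integrin subunit with which epithelial cells activate latent TGF-beta, had all 7 upstream, 6 of them within 18.9 kb, and the nearest, 5416 bp upstream, was at 14.6 and 13.9 with 2 AP-1 motifs. The promoters of ITGB6 and of CPN2, a subunit of a plasma carboxypeptidase, held no peak in either replicate. The other 8 promoters were open in both.

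**Figure D5:**
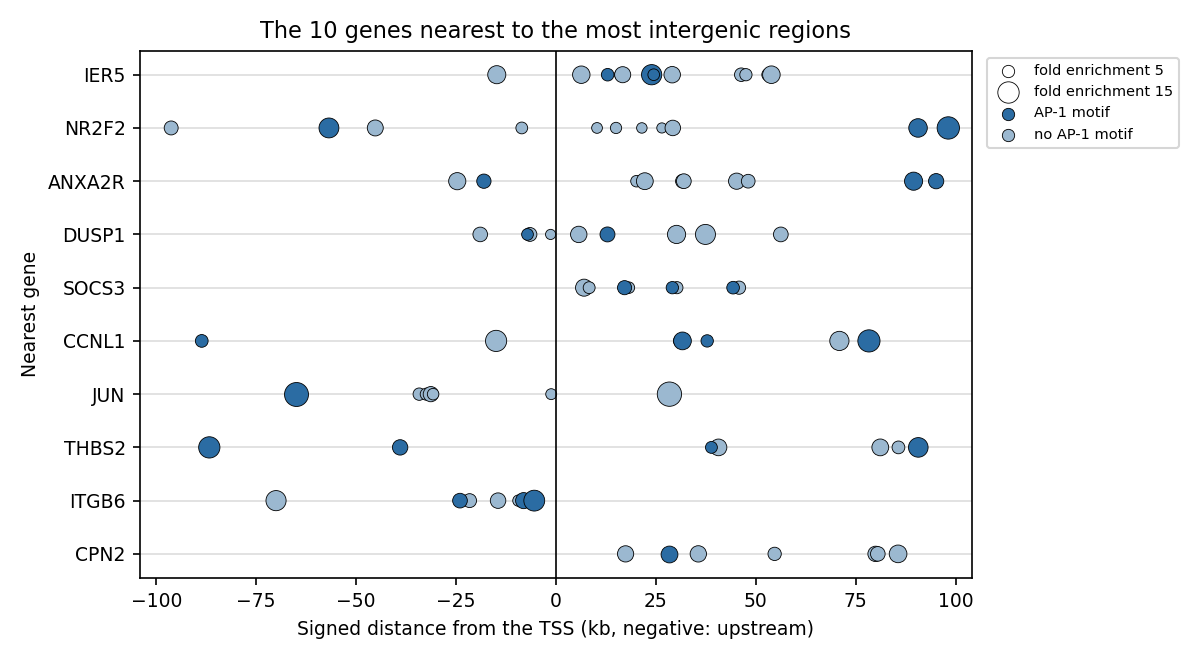
Position of each region relative to the TSS of its nearest gene in kb (x axis, negative upstream) for the 10 genes with the most regions, with larger circles for higher mean fold enrichment and dark blue for regions with an AP-1 motif. The regions of SOCS3 are all downstream and those of ITGB6 all upstream, while those of IER5, NR2F2, DUSP1 and JUN lie on both sides.

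Other regions also lay in runs. When regions with summits at most 12.5 kb apart were linked, 1532 regions (33.3%) fell into 668 chains of 2 or more, the longest the 7 at IER5, followed by 6 each at SOCS3, ITGB6 and DUSP1. The AP-1 share was 29.6% in chains of 3 or more and 29.5% in regions on their own (difference 0.125 points, −4.11 to 4.65). CTCF was held by 1.46% in such chains and 4.41% on their own (−2.95 points, −4.04 to −1.29).

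The genes of pathways named for this cell type were looked up in 11 lists of 4 to 12 genes. Of 121 genes 57 (47.1%) were nearest to at least 1 region, against 15.1% of all genes, and their 117 regions included 42 with an AP-1 motif (35.9%) and 0 with CTCF, against 29.4% and 3.83% of all 4594 regions. By list, AP-1 was held by 2 of 17 regions of AP-1 subunits, 4 of 20 of Hippo genes, 6 of 19 of TGF-beta genes and 7 of 19 of mesenchymal genes. It was held by 2 of 7 of proteases, 2 of 5 of epithelial markers, 1 of 2 of RUNX and 5 of 9 of cytokines. For lineage genes it was 3 of 5, for receptor kinases 6 of 9 and for EMT factors 4 of 5. These small counts lay to either side of 29.4%. The lists were chosen with results known, and the sequence nearest to a gene was longer in most of them. Medians were 8.87 to 97.6 kb per gene, against 13.9 kb over all genes, so the density per Mb is given beside the count of each list. A gene with 0 kb of such sequence, as RUNX1, could have no region.

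Of 12 AP-1 subunit genes 6 had a region (JUN, FOS, FOSL2, ATF3, BATF3 and MAFF), 17 in all at 35.2 per Mb against 7.27 per Mb over all genes. FOS had 3. They lay 19624 bp upstream at 12.3 and 13.1, 1681 bp upstream at 8.32 and 9.62, and 15345 bp downstream at 9.88 and 19.5, where the replicates differed most. None of the 3 held an AP-1 motif within 100 bp of its summit. BATF3 had 3, the strongest at 9.36 and 9.40, and ATF3, a stress-induced partner of JUN, had 1 at 5.37 and 5.66 with both an AP-1 motif and a CRE (TGACGTCA), which lay in 0.871% of the regions and 1.46% of all. JUNB, JUND, FOSB, FOSL1, MAFK and ATF2 had none within the limits. For JUNB there was 0 kb of sequence that could hold one, and for FOSB only 3.69 kb.

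Of 12 genes of the Hippo pathway and its TEAD targets 5 had a region, 20 in all at 33.6 per Mb. These were mostly target genes rather than the factors themselves, but the 5 genes also had more sequence that could hold a region. It was 38.3 to 152 kb per gene, against 24.9 kb or less for each factor but TEAD1. CCN1, which encodes a secreted matrix protein and is a standard target of YAP, had 6, the strongest 26563 bp downstream at 10.8 and 10.8, and TEAD motifs in 2 of the others, at 7.79 and 8.45 and at 9.38 and 5.68. AMOTL2, a feedback inhibitor of YAP, had 5, the strongest 53146 bp upstream at 9.36 and 12.7 with AP-1 and TEAD motifs. ANKRD1 had 4, among them one 9549 bp upstream at 12.6 and 12.7 with a TEAD motif. LATS2, a kinase of the pathway, had 2. CCN2 had 3, of which that 3505 bp upstream, at 8.32 and 7.34, held AP-1 and TEAD motifs. TEAD1, TEAD4 and YAP1 had none, with 99, 17.3 and 24.9 kb of sequence that could hold one. WWTR1, TEAD2 and TEAD3 had 0 kb of such sequence, so they could have no region. In the RUNX list of 4 only RUNX3 had any, 2 regions (14.5 per Mb over the list) at 5.89 and 5.89 and at 5.37 and 5.66. RUNX1 and RUNX2 also had 0 kb, so their lack of a region was fixed by the annotation.

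Of 12 TGF-beta pathway genes 8 had a region, 19 in all at 24.6 per Mb. SMAD7, the inhibitory SMAD that is itself a target of the pathway, had 6, from 66350 bp upstream to 77433 bp downstream, with the strongest at 8.66 and 9.66 and AP-1 motifs in 2. SMAD3, which carries the signal to the nucleus, had 3, at up to 6.93 and 8.64. LTBP1 and LTBP2 had 2 each, those of LTBP2 at 12.5 and 12.5 and at 6.76 and 6.51. Those of LTBP1 included the strongest region named above, with its GC content of 94.5%. The receptors TGFBR1 and TGFBR2 had 1 and 2.

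Of 12 mesenchymal structural genes 8 had a region, 19 in all at 19.98 per Mb. SPARC, a collagen-binding matrix protein, had 4, the strongest 12389 bp upstream at 17.5 and 19.0. COL5A1 had 4, of which 3 held an AP-1 motif, and the strongest was at 11.4 and 11.8. COL1A1 had 3 upstream, at up to 8.66 and 10.4. COL1A2, whose promoter held no peak of both replicates, had 3, and that 93668 bp upstream was at 14.03 and 16.3 with an AP-1 motif. Of 9 genes of transcription factors of epithelial-mesenchymal transition 3 had a region, 5 in all at 6.98 per Mb, close to the value over all genes. The strongest lay 33446 bp upstream of ZEB2 at 8.49 and 11.8, and 4 of the 5 held an AP-1 motif.

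Of 12 epithelial marker genes 4 had a region (5 in all, 10.5 per Mb), and the promoters of all 4 lacked a peak of both replicates. TP63, the master factor of basal cells, had 2, at 12.1 and 13.6 and at 7.28 and 6.80. ELF3, an epithelial ETS factor, had 1 at 10.6 and 11.6, and KRT19 had 1 at 4.68 and 4.98. Of 12 lung and airway lineage genes 5 had 1 each (5.27 per Mb). SOX9 had one 30662 bp downstream at 8.49 and 9.74 and the mucin gene MUC5AC one 3863 bp upstream at 8.84 and 7.93, both with AP-1 motifs, and those of FOXA1, GATA6 and MUC5B were at 7.80 and 6.50, 5.02 and 7.48, and 4.50 and 4.98.

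Of 12 genes of cytokines and NF-kB signalling 6 had a region, 9 in all at 11.4 per Mb. CXCL8, the neutrophil chemokine interleukin-8, had 3 upstream, all with an AP-1 motif, at 6.24 and 6.57, 4.50 and 7.25, and 3.98 and 4.76. CXCL2 had 2, at 11.4 and 11.52 and at 6.24 and 8.14, and CCL2 had 1 at 5.65 and 5.88 with an NF-kB motif. Of 12 matrix protease and inhibitor genes 5 had a region, 7 in all at 29.8 per Mb. MMP9 had one 15243 bp upstream at 9.01 and 15.2 with an AP-1 motif, PLAU, the urokinase gene, one 4157 bp upstream at 9.01 and 8.17, and TIMP2 had 3 at up to 8.65 and 6.75. Of 12 receptor tyrosine kinase genes 6 had a region, 9 in all at 11.99 per Mb, and 6 of the 9 held an AP-1 motif. EPHA2, an ephrin receptor, had 3, at 9.18 and 9.29, 6.58 and 10.9, and 4.16 and 4.76, EGFR had 2, at 7.80 and 7.25 and at 4.33 and 6.80, and MET had 1 at 5.20 and 8.16.

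Regions found in 1 replicate only were weaker. Between genes, 465 regions had a peak in replicate 1 alone, with a median fold enrichment of 4.33, and 2378 in replicate 2 alone, with 4.98. Their AP-1 shares were 22.6% (19.0 to 26.6) and 26.2% (24.5 to 28.0), and their CTCF shares 6.88% (4.92 to 9.55) and 5.21% (4.39 to 6.18), against 29.4% and 3.83% where both replicates had a peak.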

How the data were processed

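Peak lists of ATAC-seq in 2 biological replicates of untreated B2B cells were used, 1 list per replicate. The authors mapped reads to hg38 with Bowtie2 (v.2.4.4), removed duplicates with their own code and called peaks with MACS2 (v.2.2.7.1), keeping all remaining reads. The q limit and any shift of Tn5 cut positions are not given in the sources used here. In the deposited lists fold enrichment is a linear ratio, next to which the authors list each peak's −log10 p and its −log10 q. Read totals were not given there, so depth was taken from the fragments over each summit, solved from the fold enrichment and −log10 p within 0.01 (99.9% of peaks) after a test on simulated data.

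Of the peaks of a region, the summit of the one with the highest −log10 q was used. TSSs were those of canonical transcripts in GENCODE 44, and sequence came from the hg38 genome. Motifs were searched on both strands within 100 bp of the summit, among them C/EBP (TTACGCAA, TTACGTAA, TTGCGCAA or TTGCGTAA), E-box (CACGTG), GRHL (AACCGGTT), STAT (TTCCNGGAA), IRF, NFI and SRF. Matches to mitochondrial DNA were found with BLAST 2.17.0 (blastn, E-value at most 1e-10) over the region and its summit window, a setting widened after a missed match was seen. Other steps used Python 3.11.15, numpy 2.4.6, pandas 2.3.3, scipy 1.17.1, pysam 0.24.0 and matplotlib 3.10.9.

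Intervals are 95% Wilson (shares), Newcombe (differences) or exact Poisson (densities). No test between groups could be run with 1 condition. The genes named were the 10 with the most regions, those nearest to the 10 strongest regions, the 3 of each list with the most regions, and those at the distance limits, and further genes of the lists were named after their values were seen. Some genes that this rule names are not reported here. The regions and lists were chosen with earlier results of these data known, and the splits by GC content, lncRNA TSS, side, strength and chain were added after values were seen. The settings varied were the −log10 q (at least 5), the overlap (at least 50% of each peak), the replicates (each without the other), the TSS of any transcript, no mitochondrial matches, a motif window of 50 bp, and TGANTCA.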

Additional observations from a re-analysis of the deposited data

How the results depend on the processing

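Of 78 values of 12 results under 8 alternatives, 42 stayed close to the reported value (within 1.5 times for counts, within 1 SD between the replicates for other values), 36 moved by more, and 0 reversed. AP-1 remained less frequent than in introns and CTCF more frequent under each alternative that gave both. With the TSS of any transcript the regions were 19.2% of all, at a median of 27533 bp, with a density ratio of 1.37, AP-1 in 30.6% (−6.56 points against introns), CTCF 2.29 points above introns, 68.3% next to an open promoter and 29.7% in a lncRNA gene. With an overlap of 50% the density ratio was 1.33, AP-1 30.3%, the CTCF difference 2.26 points and the lncRNA share 28.6%. At a −log10 q of at least 5, AP-1 was 29.5% and the CTCF difference 2.23 points. Without mitochondrial matches the density ratio was 1.35 and AP-1 29.6%. Within 50 bp of the summit AP-1 was 20.2% (−3.53 points) and CTCF 2.42% (1.36 points), and TGANTCA gave 35.6% (−7.16 points). From 1 replicate alone the number of regions was 5169 to 7027, against 4594, their share 18.0% to 19.5%, the distance 29902 to 30973 bp, the density ratio 1.41 to 1.42 and the fold enrichment 5.72 to 6.34. AP-1 was then 27.9% to 28.1% (−5.39 to −4.81 points), CTCF 3.95% to 4.23% (2.18 to 2.25 points), the share next to an open promoter 63.5% to 66.3%, the number of nearest genes 3205 to 4057 and the lncRNA share 28.7% to 29.0%. The higher number, 7027, is replicate 2 alone, which has more peaks, so the number rests on requiring both lists. No paired analysis was possible because there was 1 condition and no result came from a test between groups. Depth limits absence, since a site under 16 or 13 fragments at its summit is in no list.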

Other observations

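Small RNA genes were among the neighbours of these regions, with 30 summits within 1 kb of the start of a miRNA gene. Those at MIR4485 matched mitochondrial DNA. The region at MIR155, a miRNA of immune and inflammatory responses whose nearest protein-coding gene is MRPL39, had fold enrichments of 6.93 and 7.02. That at MIR210, a miRNA induced by hypoxia, had 9.53 and 8.16, that at MIR22 had 3.92 and 4.10, and that at MIR4449 was the strongest, at 25.2 and 23.4. These 4 were chosen after their values were seen. Unprocessed pseudogenes with transcripts had 81 summits within 1 kb of their start. Neither this count nor the 30 was set against other kinds of open region, so neither shows an excess.

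Repeated sequence held a part of the regions. An exact run of 100 bases was shared with another of the regions in 127 of them (2.76%). Among them were copies next to GOLGA6L, PPIAL4, NBPF and NPIPA genes and next to the olfactory receptor genes OR4F4 and OR10AC1. Their median fold enrichments were 6.41 and 7.93, against 6.06 and 7.70 for the rest, and 14.2% held an AP-1 motif against 29.8% (difference −15.7 points, −20.9 to −8.43). A fragment wholly within such a run cannot be assigned to 1 place. How many fragments this holds for was not measured, so each copy is uncertain.

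The density differed between chromosomes, from 10.95 per Mb on chromosome 5 (9.88 to 12.1) and 10.1 on chromosome 1 (9.35 to 11.0) to 3.92 on chromosome 19 (3.04 to 4.97) and 2.58 on chromosome X (2.12 to 3.11). The share of regions with AP-1 ran from 15.8% on chromosome 16 to 38.3% on chromosome 8. The median fold enrichment on chromosome X was 5.89 and 6.98, the lowest of all chromosomes in replicate 2. Fragments over the summit also differed, with medians of 39.5 and 39 on chromosome 5 and 34 and 35 on chromosome 1. They were 30 and 30.5 on chromosome 19 and 33 and 30 on chromosome X. Whether the number of fragments affects these densities was not tested.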
